A study of Arabidopsis thaliana with 24 samples.

Results

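Late-only salt-induced genes are named for the rise of their group mean in wild-type Arabidopsis thaliana roots at 6 h of salt. At 1 h and 3 h that mean stayed within set limits of the control. The genes were chosen on the group means of the wild-type arrays. The rule asked for a log2 difference from the control under 0.3 in size at 1 h and under 0.5 in size at 3 h, a difference of at least 1 at 6 h, and a lowest 6 h array above the highest control array. It took 81 of the 13356 genes that had a probe set naming only them. Another 611 named genes met both 6 h conditions in wild type but passed one of the early limits, and they are called the earlier genes here.

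Root RNA was read on 24 Affymetrix ATH1 arrays, a 1-colour array on which each gene is measured by a set of short probes, and 22746 probe sets were tested. Col-0 wild type was compared with bzip1/bzip53, a double mutant in the Col-0 background whose genotype label is a knockout of both bZIP genes. Each genotype had 4 groups of 3 arrays, an untreated control and roots kept in 150 mM NaCl for 1 h, 3 h or 6 h. All plants were 6 weeks old and grown in hydroponic culture with short days, although the tissue label speaks of seedlings. Salt-treated roots of both genotypes were collected at the same point of the light period. The protocol gives no such time for the untreated roots, so salt and the hour of collection cannot be told apart there. The arrays of a group are called biological replicates, but the labels do not say how plants were divided between them, so each p-value rests on the spread among these arrays only. A whole root was measured, and a change in the number of cells of a type cannot be told apart from a change in RNA per cell.

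Salt acts on roots first as an osmotic stress, to which signalling kinases, calcium and abscisic acid respond, and later also through the sodium that builds up in the tissue. Late responses of roots to salt are known to include cell wall stiffening by peroxidases, detoxification, redox control and a change in the use of sugars and amino acids. bZIP1 and bZIP53 are transcription factors that bind DNA as dimers and are known from low-energy signalling, in which they raise enzymes of amino acid breakdown.

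Array medians lay between 6.53 and 6.67 (log2), and 2 arrays of a group correlated at 0.985 to 0.997 over all probe sets. The targeted gene BZIP53 lay between 10.37 and 11.12 on the 12 wild-type arrays and between 8.67 and 9.24 on the 12 mutant arrays, with no overlap. The sources used here do not place its probes relative to the mutation, and no probe set was named as bZIP1. Of 30 cell type markers, 4 were named in the gene table, and none of the endodermis, xylem or stele and phloem lists. The root hair expansins EXPA7 and EXPA18 fell in the mutant at 6 h, EXPA7 from 8.07 to 6.12 and EXPA18 from 7.71 to 5.68 (group means, log2). In wild type EXPA7 went from 8.23 to 6.34 and EXPA18 from 7.56 to 5.52. The leaf genes RCA and PRK rose in the mutant at 6 h by 0.56 and 0.38 and differed from the control by 0.05 and 0.16 in wild type. At 3 h RCA was lower in the mutant than in wild type, with a difference of -0.86 (adjusted p = 0.0197), and PRK differed by -0.08 without passing. The part of such changes in the levels of the 81 genes was not tested.

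Most of the 81 genes started from a low level. The wild-type control mean lay under a log2 level of 5, near background on these arrays, in 47 of them (58%), against 37.7% of all named genes and 27.5% of the earlier genes. In 17 the 6 h mean was under 5 as well, and in 14 every group mean was. A log2 difference that starts from there has no exact size. Only 15 of the 81 had a symbol in the gene table, and the others are named by locus codes. They lay on all 5 chromosomes, with 26, 10, 15, 11 and 19 genes on chromosomes 1 to 5, and the beta-glucosidase genes BGLU31 and BGLU32 were direct neighbours. Each of the 81 was read by a single probe set.

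The values that chose the genes are a description and carry no test. The wild-type difference from control at 6 h ran from 1.00 to 2.82 (log2), with a median of 1.31. At 3 h the median was 0.28, against 1.38 for the earlier genes and -0.08 for all probe sets. In 31 of the 81 all 3 wild-type arrays at 3 h lay above all 3 wild-type controls, where 16.1% of all probe sets showed that. The 3 h limit thus let small rises through. The limits cut through a continuum. Just inside the 3 h limit lay the kinase gene AT3G57700 at 0.498 and the efflux carrier gene AT5G52450 at 0.475, and just outside lay AT1G33030 at 0.519 and AT3G62590 at 0.520. At the 1 h limit, AT1G68850 and AT1G21520 were inside at -0.280 and -0.275, while AT5G50360 and AT2G20720 were outside at -0.302 each. At the 6 h limit, AT1G05400 and AT2G17680 were inside at 1.00 each and AGL65 and AT3G57460 outside at 0.997 and 0.996. DLAH and MMP met every limit on the means but had overlapping arrays.

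The mutant arrays took no part in the choice, so the mutant is where the late rise could be tested. In the mutant 78 of the 81 genes rose at 6 h against the mutant control (limma, adjusted p under 0.05), where 18.1% of all probe sets did. The median difference was 1.34 (log2) and the range 0.22 to 2.64, against a median of -0.08 over all probe sets. On 76 of them all 3 mutant arrays at 6 h lay above all 3 mutant controls, where 19.8% of all probe sets showed that. A log2 difference of at least 1 was reached by 58 of the 81 and by 7.43% of all probe sets. The 3 genes that did not pass were RR16, AT3G17520 and AT5G48175.

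**Figure D1:**
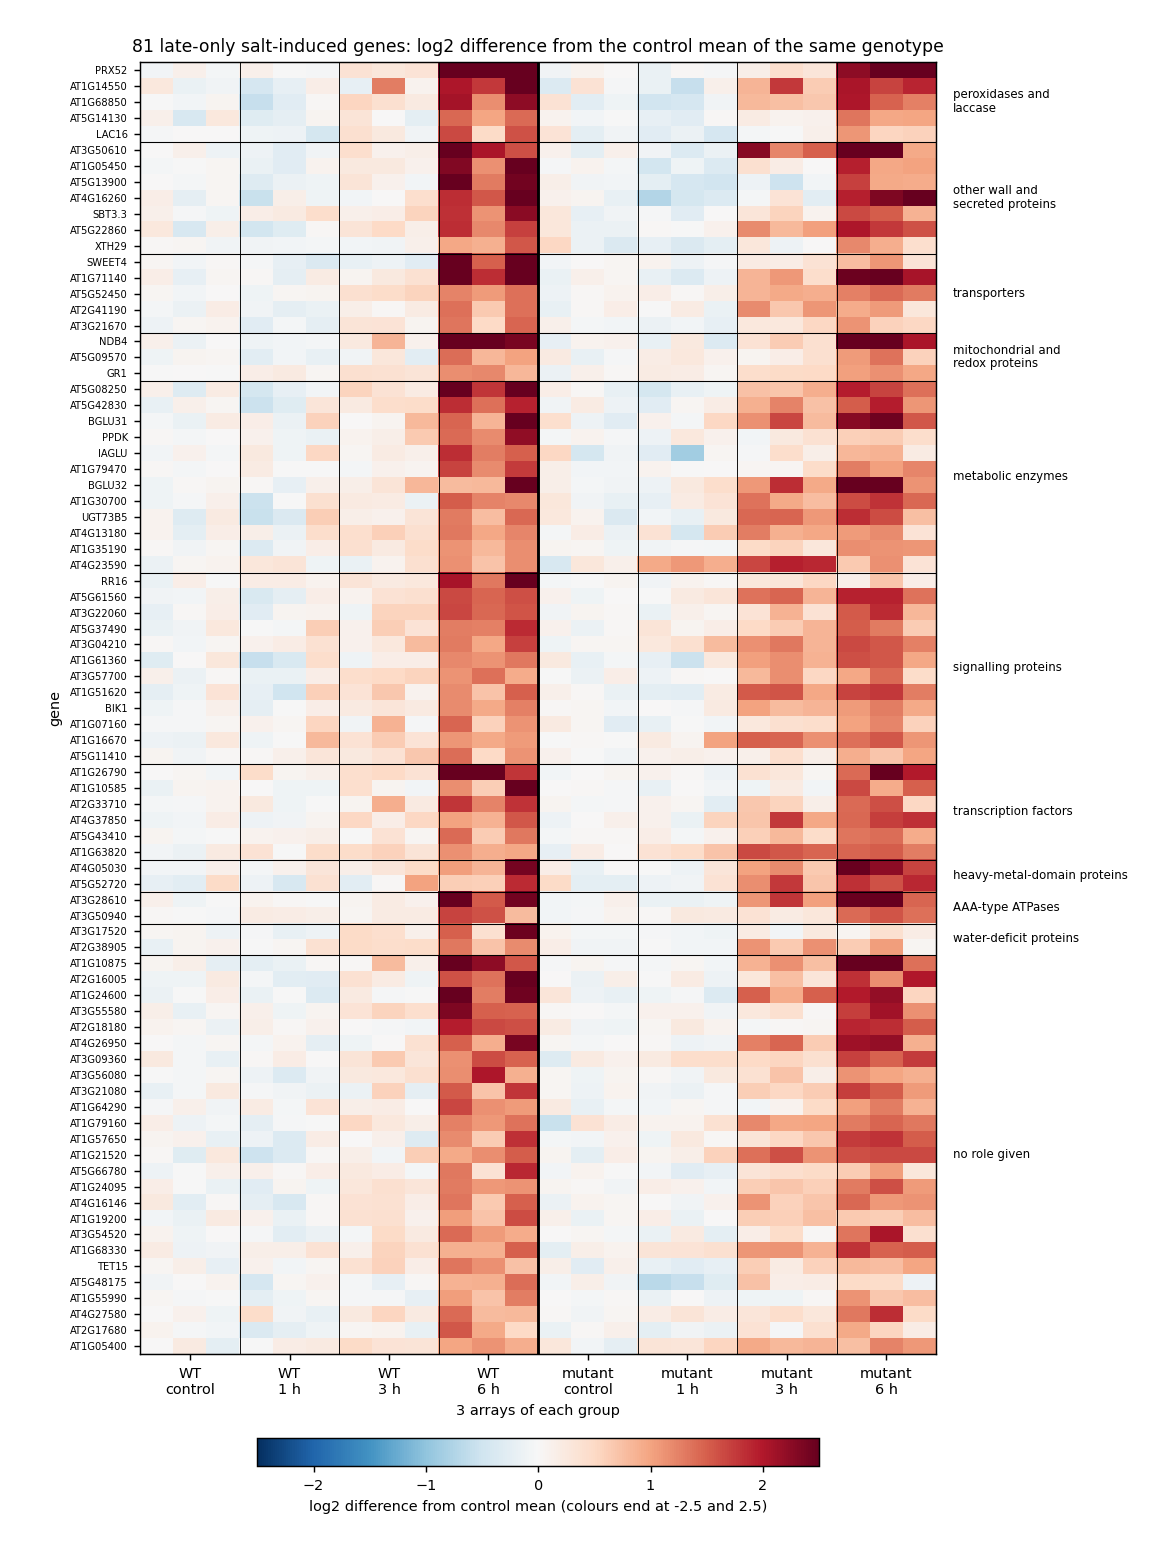
Each row is 1 of the 81 genes, grouped by role and sorted by the wild-type difference at 6 h, and each column is 1 of 24 arrays. Colour gives the log2 difference from the control mean of the same genotype. The wild-type block is pale through 3 h, as the rule requires, and in the mutant block many rows are coloured at 3 h already.

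Many of the genes had already risen in the mutant at 3 h. At 3 h 46 of the 81 had risen against the mutant control and none had fallen, where 17.4% of all probe sets were higher and 28.1% lower. The median difference at 3 h was 0.59, with quartiles of 0.25 and 1.03, and 43 genes were past the 0.5 limit that chose the set in wild type, as were 27.5% of all probe sets in either direction. At 1 h only 3 genes were higher (AT1G63820, AT4G23590 and AT1G05400) and AT5G48175 was lower, against 10.6% and 13.5% of all probe sets. The rule held the wild-type 3 h values low, so these counts describe the mutant and do not compare the timing of the genotypes. From 3 h to 6 h in the mutant 40 genes rose further (5.74% of all probe sets) and AT4G23590 fell (6.08%).

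The calls at 3 h and 6 h in the mutant divide the 81 genes, as a description. A group of 32 rose at 6 h and did not pass the test at 3 h. Among the 46 that had risen at 3 h, 16 rose again from 3 h to 6 h and 30 did not pass that test. The 3 h calls made the split, so the 3 h values of the mutant are not given for it. The same mutant controls enter the 6 h difference, so its medians are not free of the split either. The median difference at 6 h in the mutant was 1.51 in the 46 and 1.09 in the 35 others, and the wild-type medians at 3 h were 0.33 and 0.16. In wild type at 6 h the order was the other way, with medians of 1.22 in the 46 and 1.45 in the 35. Whether the genes that missed the threshold had another course was not tested. Of the 34 genes with a wild-type control of at least 5, 25 had risen in the mutant at 3 h, and of the 47 under 5, 21 had. Shares of all probe sets at these levels were not computed, so nothing particular to the 81 is read from this split.

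**Figure D2:**
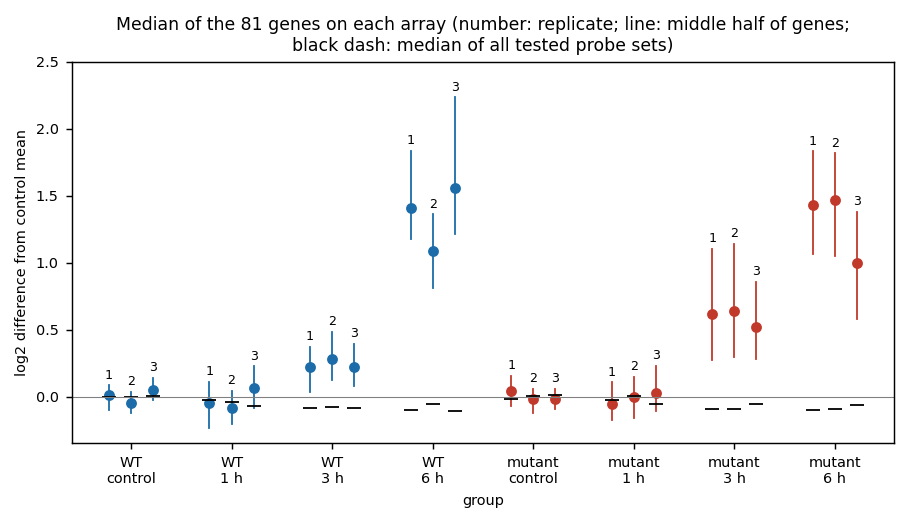
Each point is the median over the 81 genes of the log2 difference from the control mean of the same genotype on 1 array, with a line from the lower to the upper quartile. Black dashes are the median of all 22746 probe sets. At 3 h the mutant arrays stand at 0.62, 0.64 and 0.52 and the wild-type arrays at 0.22, 0.28 and 0.22.

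The arrays of the 6 h groups were not alike. The median of the 81 genes on the wild-type arrays was 1.41, 1.08 and 1.56, and on the mutant arrays 1.43, 1.47 and 1.00 (log2 difference from the own control mean). Replicate 2 was the lowest wild-type 6 h array in 60 of the 81 genes, and replicate 3 was the lowest mutant 6 h array in 56. Over all named genes those arrays were the lowest of their group in 29.8% and 27.6%. Without the third mutant array 79 of the 81 genes passed at 6 h. Leaving out the second wild-type array changed the set itself, to 91 genes that included 79 of the 81.

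The peroxidase gene PRX52 rose strongly at 6 h, and the laccase gene of the set rose by less than the median of the 81. Class III peroxidases are secreted enzymes that make and use hydrogen peroxide and cross-link lignin and wall proteins. All 5 genes of this kind rose in the mutant at 6 h and 3 had risen at 3 h. In the whole set 96.3% and 56.8% did, and in all probe sets 18.1% and 17.4%. No count of a role group, here or below, was tested against the whole set. PRX52, a peroxidase known from lignin formation, stood at 3.54, 3.75 and 3.56 (log2) in the wild-type controls, at 3.99, 3.91 and 3.95 at 3 h and at 6.22, 6.37 and 6.13 at 6 h. In the mutant its controls were 3.70, 3.88 and 3.80, its 3 h arrays 3.93, 4.22 and 4.10 and its 6 h arrays 6.02, 6.31 and 6.57. The 6 h arrays of both genotypes lay far above every other array, and overlapped each other. The mutant difference at 6 h was 2.51 ± 0.111 (SE, adjusted p = 1.34e-12), and 2.22 of it came after 3 h (adjusted p = 3.1e-10). Its difference of 0.29 at 3 h passed the test (adjusted p = 0.0375), but not without replicate 1 or 3 of the mutant control or replicate 2 or 3 of the 3 h group.

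AT1G14550, another peroxidase, stood at 4.14, 4.84 and 4.46 in the mutant controls, 5.33, 6.25 and 5.11 at 3 h and 6.52, 6.17 and 6.39 at 6 h. The 3 h arrays lay above the controls and the highest of them reached the 6 h range. It rose by 1.09 ± 0.332 at 3 h (adjusted p = 0.0108) and 1.88 ± 0.332 at 6 h (adjusted p = 8.12e-05). The 3 h call ended without control replicate 1 or 3 h replicate 2. AT1G68850 rose at both times in the mutant, by 0.75 and 1.59. AT5G14130 and the laccase gene LAC16 differed by 0.13 and 0.02 at 3 h, without passing, and rose by 1.09 and 0.73 at 6 h. Laccases are copper oxidases that polymerise lignin.

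Of 7 other wall and secreted proteins, all rose in the mutant at 6 h, 2 had risen at 3 h and 6 rose between 3 h and 6 h. The beta-1,3-glucanase gene AT4G16260, whose enzyme family cuts callose and fungal glucan, was the brightest example. In the mutant its controls were 8.93, 8.90 and 8.64, its 3 h arrays 8.76, 9.15 and 8.56 and its 6 h arrays 10.76, 11.16 and 11.51. The 3 h arrays overlapped the controls and the 6 h arrays stood clear of both. It differed by 0.01 at 3 h and rose by 2.32 ± 0.233 at 6 h (adjusted p = 7.67e-08). The wild-type arrays at 6 h were 10.69, 10.41 and 11.38, after 8.79, 8.87 and 9.28 at 3 h.

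The lipid-transfer family genes AT5G13900 and AT1G05450, whose small secreted proteins bind lipids, also waited until 6 h in the mutant. AT5G13900 differed from control by -0.24 at 3 h and rose by 1.19 ± 0.234 at 6 h (adjusted p = 0.000244). The rise of AT1G05450 at 6 h was 1.31 ± 0.303 (adjusted p = 0.00122). On the wild-type 6 h arrays AT1G05450 was 7.09, 5.92 and 7.80 and on the mutant ones 6.92, 5.93 and 5.97, so the groups overlapped. The subtilase SBT3.3, a secreted protease known from immune priming, rose by 1.34 at 6 h and the xyloglucan endotransglucosylase XTH29, which remodels wall xyloglucan, by 0.85.

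The 2 genes of this group that had risen at 3 h were AT3G50610 and AT5G22860. AT3G50610 encodes a precursor of the CEP family of secreted signal peptides. Its mutant controls were 3.93, 3.58 and 3.94, its 3 h arrays 6.09, 5.04 and 5.32 and its 6 h arrays 6.92, 7.20 and 4.76. All 3 h arrays were above the controls, and the lowest 6 h array was below every 3 h array. It rose by 1.67 ± 0.43 at 3 h (adjusted p = 0.00313) and 2.48 ± 0.43 at 6 h (adjusted p = 6.82e-05). On the wild-type arrays it was 4.17, 3.87 and 3.90 at 3 h and 6.75, 5.79 and 5.36 at 6 h. AT5G22860, of a serine carboxypeptidase family, stood at 4.92, 4.50 and 4.51 in the mutant controls, 5.82, 5.45 and 5.66 at 3 h and 6.66, 6.41 and 6.24 at 6 h. Each group was clear of the one before. It rose by 1.00 ± 0.185 at 3 h (adjusted p = 0.000146) and 1.79 at 6 h (adjusted p = 1.14e-07).

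All 3 mitochondrial and redox genes rose in the mutant at 6 h and again from 3 h to 6 h, and 1 had risen at 3 h. NDB4 encodes an external NAD(P)H dehydrogenase of the inner mitochondrial membrane, which feeds electrons into respiration without pumping protons. It had the largest 6 h difference of the 81 genes in each genotype, 2.82 in wild type and 2.64 ± 0.234 in the mutant (adjusted p = 1.56e-08). Its wild-type controls were 4.74, 4.46 and 4.61, its 3 h arrays 4.84, 5.46 and 4.71 and its 6 h arrays 7.71, 7.59 and 6.98. In the mutant the controls were 4.40, 4.70 and 4.70, the 3 h arrays 4.96, 5.23 and 5.0 and the 6 h arrays 7.32, 7.74 and 6.65. The 6 h arrays were clear of all others in both genotypes. The mutant difference of 0.46 at 3 h did not pass (adjusted p = 0.116), and 2.17 was gained from 3 h to 6 h (adjusted p = 6.41e-06).

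GR1, a glutathione reductase that regenerates reduced glutathione, was one of the most even genes of the set. Its mutant controls were 8.91, 9.18 and 9.09, its 3 h arrays 9.50, 9.54 and 9.56 and its 6 h arrays 10.09, 10.20 and 10.03. Each step stood clear of the one before. It rose by 0.48 ± 0.0879 at 3 h (adjusted p = 0.00014) and by 1.05 at 6 h (adjusted p = 7.02e-09), close to its wild-type difference of 1.06. AT5G09570, a small protein with the twin cysteine motif of mitochondrial assembly factors, differed by 0.22 at 3 h and rose by 1.00 at 6 h.

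**Figure D3:**
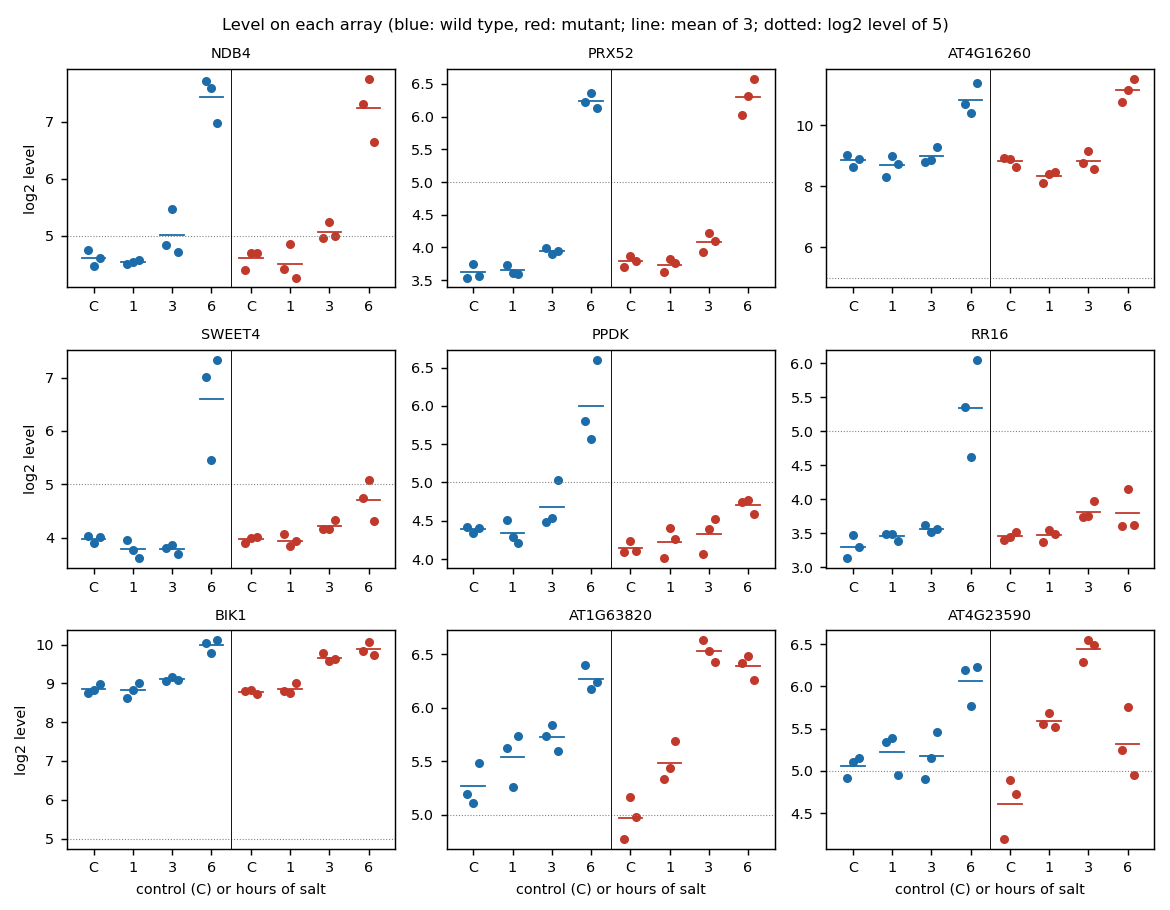
Points are the log2 level on each array for 9 of the 81 genes, with the control and hours of salt along each panel, wild type in blue and the mutant in red, and a line at the mean of 3. NDB4, PRX52 and AT4G16260 rise at 6 h in both genotypes. SWEET4, PPDK and RR16 are lower in the mutant at 6 h on every array, and BIK1, AT1G63820 and AT4G23590 are higher in the mutant at 3 h on every array.

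Among 5 transporter genes, all rose in the mutant at 6 h and 3 had risen at 3 h. AT1G71140, of the MATE family of efflux carriers for organic compounds, stood at 3.75, 4.04 and 3.97 in the mutant controls, 4.77, 5.01 and 4.36 at 3 h and 6.38, 6.71 and 5.98 at 6 h. Each of these groups was clear of the one before. It rose by 0.79 ± 0.226 at 3 h (adjusted p = 0.00675) and 2.43 ± 0.226 at 6 h (adjusted p = 2.7e-08). Its wild-type 6 h arrays were 6.42, 5.57 and 6.67. AT5G52450, of the same family, rose by 0.90 and 1.33 in the mutant, and AT2G41190, of an amino acid transporter family, by 0.99 and 0.76. AT3G21670, of the NRT1/PTR nitrate and peptide transporter family, differed by 0.35 at 3 h without passing and rose by 0.74 at 6 h.

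SWEET4, a sugar facilitator that lets sugars cross membranes down their gradient, had a much smaller 6 h difference in the mutant than in wild type. Its wild-type controls were 4.02, 3.90 and 4.0, its 3 h arrays 3.80, 3.85 and 3.70 and its 6 h arrays 7.02, 5.46 and 7.33. In the mutant the controls were 3.90, 3.98 and 4.01, the 3 h arrays 4.17, 4.16 and 4.34 and the 6 h arrays 4.74, 5.08 and 4.30. Every mutant array at 6 h was below every wild-type one, and 2 of them were under a level of 5. The mutant difference was 0.74 ± 0.29 at 6 h (adjusted p = 0.041), and the call ended without any one of the mutant control arrays or without 6 h replicate 1 or 2. The wild-type difference of 2.63 helped to choose the gene and has no test.

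The 12 metabolic enzyme genes all rose in the mutant at 6 h, and 9 had risen at 3 h. AT5G08250, a cytochrome P450, was 5.34, 5.20 and 5.0 in the mutant controls, 5.91, 5.88 and 6.09 at 3 h and 7.14, 6.87 and 6.56 at 6 h, and 7.65, 6.81 and 7.64 at 6 h in wild type. It rose stepwise in the mutant, by 0.78 at 3 h (adjusted p = 0.00255) and 1.67 at 6 h (adjusted p = 5.65e-07). AT1G79470, an inosine monophosphate dehydrogenase of guanine nucleotide synthesis, kept the late course, with mutant controls of 8.47, 8.24 and 8.24, 3 h arrays of 8.37, 8.37 and 8.77 and 6 h arrays of 9.59, 9.35 and 9.54. It differed by 0.19 at 3 h and rose by 1.18 at 6 h (adjusted p = 2.18e-07). AT1G30700, of the berberine bridge enzyme family of oxidases, rose by 1.03 at 3 h and 1.63 at 6 h, and UGT73B5, a glucosyltransferase of secondary metabolism, by 1.33 and 1.41.

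BGLU31 and BGLU32 encode beta-glucosidases, which release the non-sugar part of stored glucosides. They are neighbours of one family, and whether their probes share signal was not tested. BGLU32 was 3.23, 3.05 and 3.00 in the mutant controls, 4.18, 4.94 and 4.05 at 3 h and 5.75, 6.04 and 4.22 at 6 h. The 3 h and 6 h arrays overlapped. It rose by 1.30 at 3 h (adjusted p = 0.0127) and 2.25 at 6 h (adjusted p = 0.000108), and BGLU31 by 1.20 and 2.09. On the wild-type 6 h arrays BGLU32 was 3.92, 3.94 and 5.64, with only replicate 3 above a level of 5.

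PPDK, pyruvate orthophosphate dikinase, makes phosphoenolpyruvate from pyruvate and is known from the reuse of amino acid carbon. It was 4.42, 4.35 and 4.41 in the wild-type controls, 4.48, 4.54 and 5.04 at 3 h and 5.81, 5.57 and 6.60 at 6 h. In the mutant it was 4.10, 4.23 and 4.11, then 4.07, 4.39 and 4.52, then 4.75, 4.77 and 4.59. No mutant 6 h array reached the wild-type ones. The mutant difference was 0.18 at 3 h, which did not pass, and 0.56 ± 0.193 at 6 h (adjusted p = 0.0215), a call that ended without control replicate 1 or 3 or 6 h replicate 1 or 2. IAGLU, which joins glucose to the hormone auxin, lies close to PPDK with 2 genes between them. IAGLU rose by 0.63 ± 0.241 in the mutant at 6 h (adjusted p = 0.0367). Its lowest mutant 6 h array, at 6.25, was below its highest mutant control, at 6.57.

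AT4G23590, of the tyrosine aminotransferase family, was 1 of the 3 genes already higher at 1 h in the mutant. Its mutant controls were 4.20, 4.89 and 4.72, and it stood at 6.28, 6.54 and 6.49 at 3 h and 5.25, 5.76 and 4.95 at 6 h. Every 3 h array was above every 6 h array. It rose by 0.98 at 1 h, by 1.83 ± 0.197 at 3 h (adjusted p = 2e-07) and by 0.71 at 6 h, and fell by 1.12 from 3 h to 6 h (adjusted p = 0.000762). On the wild-type arrays it was 4.90, 5.16 and 5.46 at 3 h and 6.19, 5.76 and 6.23 at 6 h.

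Of 12 signalling genes 11 rose in the mutant at 6 h and 8 had risen at 3 h, and none met the late-only rule there. In the whole set 78, 46 and 17 of the 81 did. BIK1, a receptor-like cytoplasmic kinase that relays signals from immune receptors, stood at 8.80, 8.82 and 8.71 in the mutant controls, 9.79, 9.57 and 9.64 at 3 h and 9.84, 10.06 and 9.73 at 6 h. Its wild-type arrays were 8.74, 8.83 and 8.98 in the control, 9.07, 9.16 and 9.08 at 3 h and 10.03, 9.79 and 10.11 at 6 h. At 3 h the genotypes were apart and at 6 h they overlapped. It rose by 0.88 ± 0.109 at 3 h in the mutant (adjusted p = 1.19e-06) and by 1.09 at 6 h (adjusted p = 6.73e-08), and the 0.21 between them did not pass.

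The kinase genes AT1G16670, AT1G51620 and AT1G61360 had also risen by 3 h in the mutant. AT1G16670 rose by 1.36 at 3 h and 1.35 at 6 h, AT1G51620 by 1.36 and 1.58, and AT1G61360, an S-domain receptor-like kinase, by 1.02 and 1.38. AT5G61560, a kinase with a U-box of the ubiquitin system, rose by 1.22 and 1.73, and AT5G37490, a U-box ubiquitin ligase, by 0.66 and 1.15. The TIR-NBS gene AT3G04210, of a family of intracellular immune receptors, rose by 1.1 and 1.49. The protein phosphatase 2C gene AT1G07160 differed by 0.37 at 3 h without passing and rose by 0.94 at 6 h. Of the 12 genes 7 had a wild-type control under 5, among them AT3G04210, AT1G51620 and AT1G07160.

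RR16, a type-A response regulator of cytokinin signalling, was the signalling gene that did not pass in the mutant. Its wild-type controls were 3.14, 3.47 and 3.30, its 3 h arrays 3.62, 3.52 and 3.57 and its 6 h arrays 5.36, 4.62 and 6.05. In the mutant it was 3.41, 3.44 and 3.52, then 3.73, 3.75 and 3.97, then 3.60, 4.16 and 3.63. All mutant arrays were under 5 and all mutant 6 h arrays were below the wild-type ones. The mutant difference at 6 h was 0.34 ± 0.218 (adjusted p = 0.215).

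All 6 transcription factor genes rose in the mutant at 6 h and 3 had risen at 3 h. AT1G26790, of the Dof family, was 3.06, 3.13 and 3.18 in the mutant controls, 3.51, 3.41 and 3.17 at 3 h and 4.54, 5.74 and 5.11 at 6 h. Only the 6 h arrays stood apart. It differed by 0.24 at 3 h and rose by 2.01 ± 0.23 at 6 h (adjusted p = 4.36e-07), and its wild-type 6 h arrays were 5.70, 5.70 and 4.77. The bHLH gene AT1G10585 differed by 0.01 at 3 h and rose by 1.36 at 6 h, and the bHLH gene AT4G37850 rose by 1.15 and 1.66. On the wild-type 6 h arrays AT1G10585 was 4.29, 3.75 and 6.35, with only replicate 3 above a level of 5. The AP2/ERF genes AT2G33710 and AT5G43410 rose by 1.19 and 1.22 at 6 h. All of these but AT1G63820 had a wild-type control under 5.

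AT1G63820, a gene with the CCT motif of plant regulators such as CONSTANS, was 4.78, 5.16 and 4.98 in the mutant controls, 6.63, 6.53 and 6.43 at 3 h and 6.42, 6.48 and 6.26 at 6 h. It was at its 6 h level by 3 h, with overlapping arrays. It rose by 0.51 at 1 h, 1.56 ± 0.131 at 3 h (adjusted p = 8.4e-09) and 1.42 at 6 h (adjusted p = 2.63e-08). Its wild-type arrays were 5.74, 5.84 and 5.59 at 3 h and 6.40, 6.18 and 6.24 at 6 h.

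Smaller groups held a pair of genes each. The heavy-metal-domain genes AT4G05030 and AT5G52720 rose in the mutant by 0.95 and 1.21 at 3 h and by 2.13 and 1.76 at 6 h, all from controls under 5. The AAA-type ATPase gene AT3G28610 was 3.84, 3.85 and 4.03 in the mutant controls, 5.01, 5.69 and 4.93 at 3 h and 6.37, 7.25 and 5.35 at 6 h, and rose by 1.30 (adjusted p = 0.00218) and 2.42 (adjusted p = 2.83e-06). Its relative AT3G50940 differed by 0.28 at 3 h without passing and rose by 1.45 at 6 h. AT3G17520, of the LEA family of desiccation proteins, was 4.93, 3.85 and 5.90 on the wild-type 6 h arrays and 3.59, 3.92 and 3.71 on the mutant ones, where it did not pass (0.22, adjusted p = 0.564). The groups overlapped through the second wild-type array. AT2G38905, of a family of small low temperature and salt responsive membrane proteins, rose by 0.98 at 3 h and 0.58 at 6 h in the mutant, and the 6 h call ended without control replicate 2 or 3 or without 6 h replicate 2.

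No role is given here for 25 genes, of which 24 rose in the mutant at 6 h and 13 had risen at 3 h. AT1G10875 was 3.50, 3.58 and 3.49 in the mutant controls, 4.39, 4.66 and 4.27 at 3 h and 6.06, 6.92 and 4.90 at 6 h. The 3 groups did not overlap. It rose by 2.44 ± 0.34 at 6 h (adjusted p = 5.25e-06). AT2G16005 rose by 1.66 at 6 h (adjusted p = 0.000735), and its wild-type 6 h arrays of 5.59, 5.35 and 7.59 were led by replicate 3. AT2G18180 differed by 0.00 at 3 h in the mutant and rose by 1.75 ± 0.111 at 6 h (adjusted p = 1.65e-10).

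AT1G21520 was brighter than most, at 7.92, 7.60 and 8.01 in the mutant controls, 9.22, 9.45 and 8.97 at 3 h and 9.45, 9.50 and 9.50 at 6 h. It rose by 1.37 ± 0.198 at 3 h (adjusted p = 8.82e-06) and 1.64 at 6 h. Its wild-type 3 h arrays were 8.40, 8.18 and 8.87, all below the mutant ones. AT5G48175 was 5.88, 6.09 and 5.85 in the mutant controls, fell by 0.52 at 1 h and stood at 6.42, 6.40 and 5.81 at 6 h. The lowest 6 h array was under all controls, and the difference of 0.27 did not pass (adjusted p = 0.242). Without that array it was 0.47 and passed (adjusted p = 0.0436).

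The rule that chose the set can be put to the mutant alone, as a description. The mutant met it with 34 genes, and 17 genes met it in both genotypes, which is 21.0% of the 81 and 50.0% of the 34. The 17 were NDB4, GR1, PRX52, SBT3.3, AT1G79470, AT1G35190, AT5G14130, AT1G26790, AT1G10585, AT2G33710, AT3G50940, AT2G16005, AT2G18180, AT3G55580, AT1G64290, AT3G54520 and AT4G27580. Of these, 13 had a wild-type control under 5. AT1G35190, of a family of 2-oxoglutarate dependent dioxygenases, was a brighter one, at 9.38, 9.08 and 9.42 on the wild-type and 9.47, 9.42 and 9.41 on the mutant 6 h arrays. Of the 64 that did not meet the rule in the mutant, 31 missed only the 3 h limit among the limits on the means and 15 only the 6 h limit. These counts leave out the condition on single arrays, which 5 of the 81 failed in the mutant, AT3G17520 among them. The count of 17 ranged from 14 to 23 when 1 mutant array was left out.

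**Figure D4:**
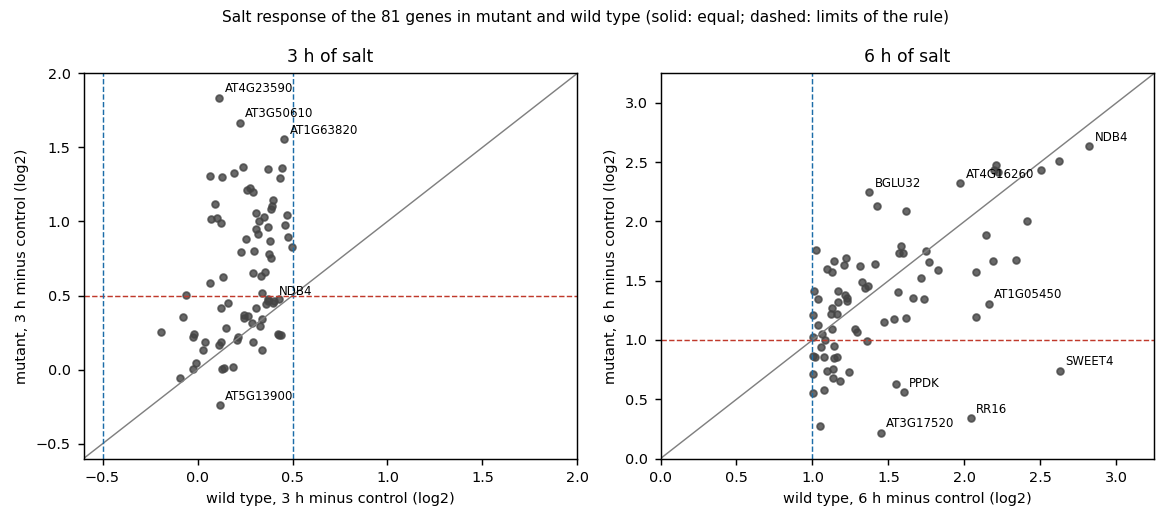
Each point is 1 of the 81 genes, with the log2 difference from control in wild type along the horizontal axis and in the mutant along the vertical axis. Dashed lines are the limits of the rule and the solid line marks equal values. At 3 h 70 points lie above the line of equality, and at 6 h 35 do.

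Set against wild type, most calls among the 81 came at 3 h. The wild-type arrays of this comparison chose the genes, and a rule that asks for low wild-type values at 3 h raises the difference by itself, so the counts are a description. At 3 h 47 genes were above wild type on every mutant array, where 15% of all probe sets were, and AT3G09360 was below on every one (21.1%). By limma 23 were called higher (4.32% of all probe sets) and none lower (5.92%). That count was 7 without mutant replicate 1, 8 without wild-type replicate 1, 12 without wild-type replicate 3, 13 without mutant replicate 2 and 15 without wild-type replicate 2. In the control 0 genes were called (0.211%) and 4 had an unadjusted p under 0.05 (10%), and at 1 h 0 were called (0.022%) and 0 had such a p (3.32%). The test of the 3 h response between genotypes called 4 genes higher in the mutant (0.787%), and that of the 6 h response called RR16 lower (0.0176%), a call that ended with the replicate number as a block or in a fit of only the groups compared.

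The 3 h response itself, salt minus control, was larger in the mutant in 70 of the 81 genes, with a median difference between genotypes of 0.36 (log2). The earlier genes showed it in 532 of 611 with a median of 0.51. Over all probe sets the median was 0.01, so larger and smaller mutant responses lay near balance there. The earlier genes too were chosen on wild-type arrays, and the wild-type controls enter the difference. Both counts are therefore a description. Genes chosen by the same rule in the mutant were evenly split. Of the 34, 17 had the larger 3 h response in the mutant, and the median difference was -0.02. Past the 0.5 limit at 3 h in the genotype that did not choose them were 43 of the 81 genes (53.1%) and 8 of the 34 (23.5%). All 43 were rises, while in the mutant 27.5% of all probe sets were past it in either direction. The share of all probe sets past it in wild type is not given here, so the 8 stand without a background. By limma 17.4% of all probe sets were higher at 3 h in the mutant and 12.4% in wild type (adjusted p under 0.05). The counts of 43 and 8 do not compare the timing of the genotypes. The 81 and the 34 share 17 genes and all arrays, and the difference between these sets was not tested.

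**Figure D5:**
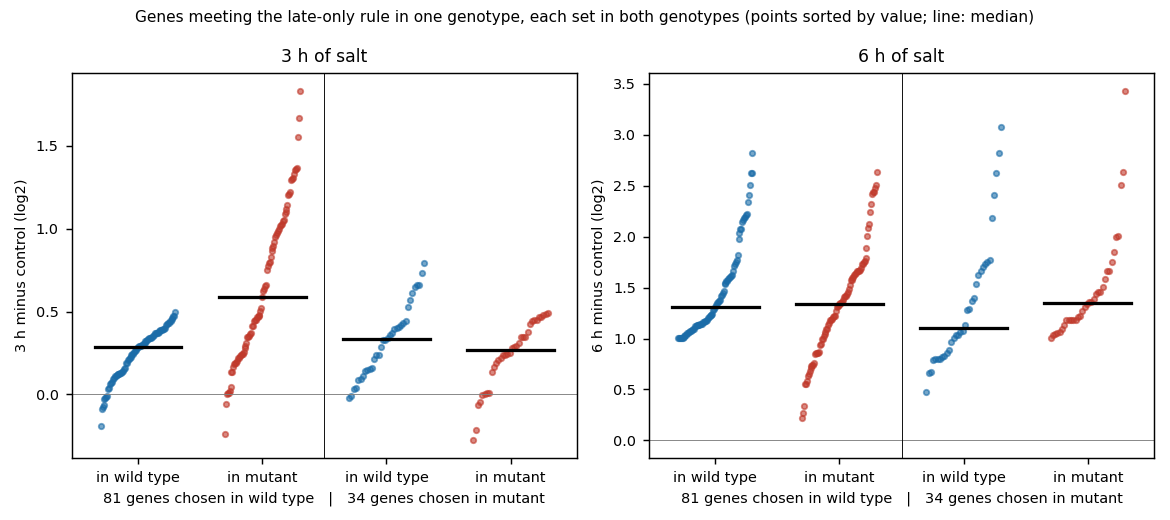
Points are log2 differences from control at 3 h and at 6 h for the 81 genes chosen in wild type and the 34 chosen in the mutant, each shown in both genotypes, sorted by value, with a black line at the median. At 3 h the 81 genes have a median of 0.28 in wild type and 0.59 in the mutant, and the 34 have 0.33 and 0.27.

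At 6 h the mutant response was larger than the wild-type one in 35 of the 81 and smaller in 46, and the share of all probe sets is not given here. The rule asked for wild-type values at 6 h that are high, which by itself lowers the mutant against them, so these values and calls are a description too. No gene was above wild type on every mutant array, where 6.03% of all probe sets were, and SWEET4, PPDK, RR16 and AT4G23590 were below it on every one, where 9.67% of all probe sets were. By limma 3 were called lower in the mutant, SWEET4, RR16 and PPDK (0.514% of all probe sets), with differences in level of -1.90, -1.55 and -1.29. The count of calls in either direction was 11 without the second wild-type 6 h array, which had the lowest values, and all 11 were lower. Without the third wild-type 6 h array the count was 5, of which 2 were higher in the mutant. It was 8 with array weights and 0 in a fit of only the groups compared, where all 3 calls ended. In 6 of the 81 the mutant difference was under 0.5 times the wild-type one, again without a share of all probe sets. SWEET4 and PPDK act in the use of sugar and amino acid carbon, and RR16 in cytokinin signalling.

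Pathways named with these transcription factors or with salt were checked by lists, and PPDK was the only gene of the 81 in them. The lists were not complete, and that of LEA and dehydrin genes did not hold AT3G17520. Of 182 listed genes 43 were named in the gene table, so most were not analysed here. Some lists had no named gene, abscisic acid response, suberin and sodium and potassium transport among them. Beside PPDK, the list of other amino acid turnover had 4 named genes. In the mutant at 6 h MGL, the methionine lyase, rose by 1.36, AT5G38710, a proline dehydrogenase, by 2.94 and DELTA-OAT, ornithine aminotransferase, by 0.46, while AT4G33150, the lysine degradation enzyme, fell by 0.47. The 6 named genes of the LEA and dehydrin list rose, LTI30 by 2.42 and COR15A by 3.95 among them. Of 10 named genes of branched-chain amino acid breakdown 1 rose and 3 fell, and of 9 ATG8 autophagy genes 1 rose and 5 fell, where 29.8% of all probe sets fell.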

How the data were processed

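The authors' deposited values ran from 2.46 to 14.04 and were taken as log2 for that reason. RMA, affy and limma are named as tools and TAIR9 as the build, per the submitters' processing notes. No source used here gives versions or settings, and scanner files were not analysed here. RMA evens out the intensity distributions between arrays, so a shift common to most genes would not show.

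Of 22810 probe sets, 64 controls were left out. The platform table gave 1 gene for 13513 probe sets, updated through Entrez identifiers to TAIR10.1 names (13436 matched). A gene with several probe sets used the one with the highest mean. The 8 group means were fitted together over the 24 arrays with limma 3.58.1 in R 4.3.3, with two-sided moderated tests and Benjamini-Hochberg adjustment over 22746 probe sets. Errors are standard errors of this fit, and the number of arrays limits the precision. The fit was tested on simulated data.

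The 81 genes, lists and role groups were chosen with earlier results of these data known. Named genes are the 12 largest in wild type and the 6 largest and 6 smallest in the mutant at 6 h, those in a pathway list, those nearest each limit, and up to 4 per role group or list. Genes beyond that were named after their values were seen.

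Alternatives were leaving out each array, a replicate block, fits of only the groups compared, array weights, an intensity trend, a filter at a group mean of 5, centring arrays, stricter thresholds and, for the rule, group medians and another probe set. Deviations from the group means paired same-numbered arrays only between the genotypes at 1 h (correlations of 0.177, 0.703 and 0.719), where the labels name no shared origin.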

Additional observations from a re-analysis of the deposited data

Results flagged for a closer look

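In 5 of the 81 genes the salt response differed between mutant and wild type by the test of the difference itself, adjusted over all probe sets. The wild-type arrays that chose the genes enter this difference, so the sizes are a description and the calls are not independent evidence. At 3 h the mutant response was larger by 1.72 (log2) in the aminotransferase family gene AT4G23590, by 1.13 in AT1G21520, by 1.1 in the CCT motif gene AT1G63820 and by 0.63 in the kinase gene BIK1. They are 4 of 81, where 0.787% of all probe sets were called in that direction. At 6 h the mutant response of the response regulator gene RR16 was smaller, with a difference of -1.70, where 0.0176% of all probe sets were called lower. That call was absent with the replicate number as a block, in a fit of only the groups compared and at an adjusted p under 0.01, which gave 0 each. The 3 h count was 2 without replicate 1 or 3 of the wild-type control, replicate 1, 2 or 3 of the mutant control, replicate 1 or 2 of the wild-type 3 h arrays or replicate 1 of the mutant 3 h arrays. The 6 h count was 4 without the second wild-type 6 h array. It was 0 without any 1 of the wild-type controls, wild-type 6 h replicate 1, mutant control replicate 1 or 2, or mutant 6 h replicate 1 or 3. No test for a single outlying array was made, since groups of 3 are too small for one.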

How the results depend on the processing

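The 6 h count of 78 in the mutant stayed between 58 and 79 in every alternative run. The rule on wild-type arrays gave 70 to 91 genes when 1 array was left out, 83 with group medians (62 of the 81 shared) and 89 with arrays centred on their median (80 shared), and 14 to 23 genes met it in the mutant too. When 1 array was left out, the mutant counts were 2 to 3 at 1 h (4 with all arrays), 40 to 44 at 3 h, 72 to 79 at 6 h and 29 to 43 from 3 h to 6 h. Against wild type they were 0 to 0 in the control and at 1 h, 7 to 17 at 3 h and 3 to 11 at 6 h, and for the difference of responses 0 to 0 at 1 h, 2 to 3 at 3 h and 0 to 4 at 6 h. Of 24 same-numbered pairs of arrays 12 correlated over 0.1, and all 3 pairs of a comparison did so only between the genotypes at 1 h. With the replicate number as a block that comparison still called 0 genes, the 6 h difference of responses 0, the 1 h mutant count was 2 and the other mutant counts 47, 78 and 41. At an adjusted p under 0.01 the 1 h count was 2, the count against wild type at 3 h 6 and those of the 3 h and 6 h differences of responses 0. With a fold of at least 2 asked for, the counts were 0 at 1 h, 23 at 3 h, 20 from 3 h to 6 h and 6 against wild type at 3 h. Fits of only the groups compared gave 0 against wild type at 6 h, 11 for the 3 h difference and 0 for the 6 h difference. Array weights gave 35 and 8 against wild type at 3 h and 6 h, and 9 and 2 for the differences of responses. Centring gave 2 for the 3 h difference. Centring moved the median of all probe sets by at most 0.0816 (log2). Of the values of single named genes under an alternative, 672 kept direction and side, 64 no longer passed, 7 newly passed and 7 changed sign. The last were all changes from 3 h to 6 h in the mutant that did not pass, namely AT5G48175 (-0.19 to 0.12 over the arrays left out), AT3G17520 (-0.0133 to 0.16) and RR16 (-0.205 to 0.0716). The causes were not tested. Of the 81 genes, 14 had every group mean under 5, and the filter on dim probe sets left 67.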
